A study of Mus musculus with 9 samples.

Results

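The genes described here encode the 10 transcription factors of the Fos, Jun, Atf3 and Batf branches of the AP-1 family: Fos, Fosb, Fosl1, Fosl2, Jun, Junb, Jund, Atf3, Batf and Batf3. They were found by matching the Entrez identifiers of the count table to mouse symbols, and all 10 were among its 27179 genes. RNA was sequenced from HPC7, a mouse line of blood progenitors grown with stem cell factor (100 ng/ml). The cells carried 1 of 3 forms of a murine stem cell retrovirus with a green fluorescent protein: an empty vector, a vector with wild-type Snai1, or a vector with a Snai1 whose phenylalanine at residue 5 had become alanine, a change that weakens binding to the demethylase Lsd1. Fluorescent cells were sorted 1 week after transduction, and each group had 3 libraries. All 3 groups therefore share the line, the viral backbone, the sort and the culture conditions, and Snai1 came from a viral promoter rather than from its own.

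AP-1 is a dimer of proteins with a basic region that grips DNA and a leucine zipper that holds both partners together. Jun proteins pair with each other or with a Fos protein, Fos proteins need a Jun partner, and Batf proteins take the place of Fos in the dimer and lack its long activation domain. Several of the genes are immediate-early genes, whose RNA appears within minutes of a growth factor, cytokine or stress signal and decays quickly. In the myeloid lineage Jun, Junb and Fos are known for their part in monocyte and macrophage differentiation, and Batf3 for its part in dendritic cells.

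Library totals ran from 18332451 to 20860314 counts, so a floor of 3 counts corresponded to between 0.144 and 0.161 CPM, where CPM is the count of a gene relative to the library total after TMM scaling. Snai1 itself was at 0.698 to 1.06 CPM in the empty vector libraries, 425, 488 and 562 CPM in wild-type replicates 1 to 3, and 415 to 493 CPM in the mutant libraries. Wild-type replicate 1 stood apart from the other libraries of its group. The median absolute log2 difference over tested genes was 0.223 and 0.231 between it and wild-type replicates 2 and 3, against 0.0861 between those 2 and 0.0775 to 0.113 within the other groups. Empty vector replicate 1 stood apart in another way. By a chi-square of counts per gene it differed from the other controls by 79.0 and 77.2, against 5.29 between those 2, and wild-type replicate 1 differed from its group by 50.7 and 60.1. In empty vector replicate 1, 10 genes gave 92.3% and 88.2% of that sum. Among them were mt-Rnr1 and mt-Rnr2, the mitochondrial ribosomal RNA genes, which took 0.413% of its counts and 0.0354% to 0.0591% of the other libraries. These 2 genes carried only a small part of the sum, and the others of the 10 are not named here. In wild-type replicate 1 the 10 largest genes gave 11.6% and 13.2%. Results that leaving out either library changes are given both ways. The part of ribosomal RNA, or of the other genes with a large chi-square, in the AP-1 levels was not tested. All 11 markers of blood progenitors that were looked up, among them Kit and Cd34, were tested and present in every group, with sums of 7905 to 8162 CPM without wild-type Snai1 and 8183 to 9868 CPM with it.

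RefSeq promoter windows on GRCm38.p6 were at hand for 9 of the 10 genes, each 300 bases long with 250 before the annotated start and 50 from it on. Those of the 4 genes whose levels changed most, Jun, Fosb, Fosl2 and Junb, are printed 5′ to 3′ on the strand of the gene. Capitals mark, in the Jun window, a variant of the TPA response element, which Jun dimers bind, and in the Fosb window the E-box that Snail proteins bind. The Jun window lies at chr4:95052173-95052472 (minus strand), that of Fosb at chr7:19309996-19310295 (minus strand), that of Fosl2 at chr5:32136222-32136521 (plus strand) and that of Junb at chr8:84978699-84978998 (minus strand).
Jun: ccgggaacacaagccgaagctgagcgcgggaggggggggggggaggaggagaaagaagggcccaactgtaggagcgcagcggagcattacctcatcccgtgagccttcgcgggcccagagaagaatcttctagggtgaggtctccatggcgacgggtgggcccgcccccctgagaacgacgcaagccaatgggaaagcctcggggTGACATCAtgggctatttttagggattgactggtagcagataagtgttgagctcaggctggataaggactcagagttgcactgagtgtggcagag
Fosb: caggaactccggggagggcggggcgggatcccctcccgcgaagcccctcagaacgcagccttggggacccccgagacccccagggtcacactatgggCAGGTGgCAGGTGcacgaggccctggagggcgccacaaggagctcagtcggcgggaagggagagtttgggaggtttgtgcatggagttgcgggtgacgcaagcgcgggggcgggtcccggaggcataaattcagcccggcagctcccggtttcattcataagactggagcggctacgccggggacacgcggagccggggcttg
Fosl2: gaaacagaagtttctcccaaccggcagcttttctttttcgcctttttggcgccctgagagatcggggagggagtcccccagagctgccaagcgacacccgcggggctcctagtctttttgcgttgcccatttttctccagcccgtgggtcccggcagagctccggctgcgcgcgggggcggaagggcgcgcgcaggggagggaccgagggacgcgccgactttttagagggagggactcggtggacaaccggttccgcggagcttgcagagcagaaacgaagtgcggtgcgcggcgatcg
Junb: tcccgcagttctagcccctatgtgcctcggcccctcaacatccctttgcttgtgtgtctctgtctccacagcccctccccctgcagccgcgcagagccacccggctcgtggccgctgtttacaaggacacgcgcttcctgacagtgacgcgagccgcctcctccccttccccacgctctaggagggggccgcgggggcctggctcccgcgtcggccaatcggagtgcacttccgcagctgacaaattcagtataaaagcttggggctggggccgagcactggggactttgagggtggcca

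Each window was searched on both strands for 6 motifs. The Snail E-box CAGGTG occurred at 2 places in the Fosb window, at positions -153 and -146 relative to the start with 1 base between them, and in no other of the 9 windows. It is a common word, present in 20.2% of 32851 windows of that length. The letters TGACATCA, the Jun promoter's variant of the TPA element, were met in the Jun window alone of the 9, at position -45, against 3.62% of all windows. The standard TPA element TGACTCA (5.20% of all windows), the cAMP response element TGACGTCA (1.79%) and the CArG box, bound by serum response factor (1.63%), had no match in these 9 windows. The GC box GGGCGG was found in 7 of 9 windows, Junb and Jund being the exceptions, and in 35.7% of all windows. No motif shared positions with another kind of motif in these windows. A match describes letters only, and binding was not measured.

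**Figure D1:**
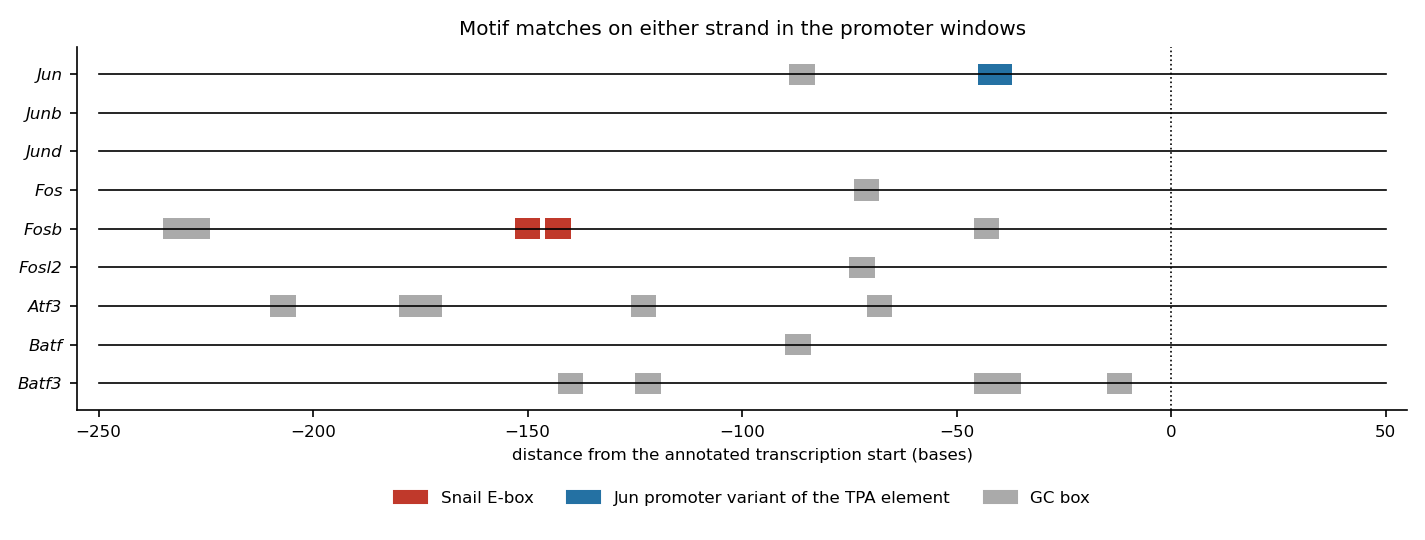
Motif matches in the promoter windows of 9 AP-1 genes, drawn as blocks at their distance in bases from the annotated start (dotted line), with 1 line per gene. The 2 Snail E-boxes lie in the Fosb window and the TPA element variant in the Jun window, while GC boxes occur in 7 of the 9.

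The Jun branch holds the strongest activator of the family, Jun, and 2 relatives that often temper it, Junb and Jund. Jun has gene number 16476 and spans 95049036 to 95052222 on chromosome 4 of GRCm38. Its level was 56.0, 46.5 and 37.4 CPM in empty vector replicates 1 to 3, 175, 250 and 340 CPM with wild-type Snai1 and 48.2, 42.6 and 62.5 CPM with the mutant. Every wild-type library lay above every other library, and the mutant libraries overlapped the controls. The group means were 46.6 ± 9.30, 255 ± 82.5 and 51.1 ± 10.3 CPM (SD, n = 3). Jun rose with wild-type Snai1 by 2.45 on the log2 scale (SE 0.26, 95% interval 1.84 to 3.06, adjusted p 1.10e-04 in the edgeR quasi-likelihood test).

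Junb (gene 16477, chr8:84976909-84978748) was at 93.6, 67.7 and 52.5 CPM with empty vector, 95.9, 279 and 338 CPM with wild-type Snai1 and 93.1, 84.5 and 124 CPM with the mutant. Wild-type replicate 1 was level with the highest control, and the other 2 wild-type libraries were well above all others. Its log2 fold change was 1.74 (SE 0.45, 95% interval 0.69 to 2.79, edgeR adjusted p 0.0142). Without wild-type replicate 1 it was 2.11 (SE 0.28, adjusted p 0.00156), and leaving out either of the other wild-type libraries ended the call (adjusted p 0.0503 without replicate 2 and 0.0507 without replicate 3). GENCODE places Prdx2 on the opposite strand over 351 bases of Junb, so a share of these reads is uncertain unless the counting used strand.

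Jund (gene 16478, chr8:70697739-70700616), which is usually the steadiest of the Jun genes, was at 68.6, 46.6 and 33.2 CPM with empty vector, 49.3, 78.5 and 111 CPM with wild-type Snai1 and 49.4, 47.3 and 66.4 CPM with the mutant. Its groups overlapped, and the log2 fold change of 0.68 with wild-type Snai1 (SE 0.34, 95% interval -0.10 to 1.47) did not pass the test (edgeR adjusted p 0.130). It passed only when empty vector replicate 1, the highest control, was left out (0.98, adjusted p 0.0401). Antisense transcripts are annotated over parts of Jun and Jund in GENCODE and have no row of their own in the table, so reads from them cannot be told apart if strand was not used.

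The Fos branch supplies the partners of Jun. Fos (gene 14281, chr12:85473890-85477274), the founding member, was at 27.1, 16.6 and 24.7 CPM with empty vector, 16.6, 56.4 and 70.2 CPM with wild-type Snai1 and 30.3, 20.8 and 42.5 CPM with the mutant. Wild-type replicate 1 matched the lowest control, whereas replicates 2 and 3 exceeded all 6 libraries of the other groups. The log2 fold change of 1.07 (SE 0.51, 95% interval -0.11 to 2.24) did not pass the edgeR test (adjusted p 0.118). Without wild-type replicate 1 it was 1.48 (SE 0.35) with an adjusted p of 0.0140.

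Fosb (gene 14282, chr7:19302696-19310118) is a close relative of Fos that also comes in a truncated long-lived form, which gene counts do not separate. It was at 2.71, 1.78 and 2.20 CPM with empty vector, 8.62, 13.3 and 25.1 CPM with wild-type Snai1 and 2.96, 1.95 and 2.40 CPM with the mutant. All 3 wild-type libraries were above the other 6, although they differed among themselves by a factor of 2.91. Fosb had the largest rise of the 8 tested genes, 2.81 on the log2 scale (SE 0.39, 95% interval 1.94 to 3.68, edgeR adjusted p 2.83e-04).

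Fosl2 (gene 14284, chr5:32136472-32157840) encodes Fra-2, a Fos protein without the strong activation domain of Fos. Its levels were 46.3, 37.9 and 45.1 CPM with empty vector, 38.7, 235 and 342 CPM with wild-type Snai1 and 48.5, 51.7 and 82.2 CPM with the mutant. Within the wild-type group the highest library was 8.84 times the lowest, and wild-type replicate 1 lay inside the control range. Over the group Fosl2 rose by 2.25 on the log2 scale (SE 0.71, 95% interval 0.56 to 3.94, edgeR adjusted p 0.0353), or by 2.74 (SE 0.29, adjusted p 5.67e-04) without wild-type replicate 1. It no longer passed with any 1 of 4 libraries left out: control replicate 2 (adjusted p 0.0876), control replicate 3 (0.0643), wild-type replicate 2 (0.0865) or wild-type replicate 3 (0.104). The same held with no filter on low counts (0.0637).

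Fosl1 (gene 14283, chr19:5447698-5455938), which encodes Fra-1 and is known as an AP-1 target itself, was close to the floor with 2 to 18 counts per library. Mean levels were 0.406 ± 0.259 CPM in the controls, 0.530 ± 0.405 CPM with wild-type Snai1 and 0.421 ± 0.156 CPM with the mutant (SD, n = 3). No comparison of Fosl1 passed the test, and its fold change with wild-type Snai1 had an interval of -1.14 to 1.86 on the log2 scale. The gene Ccdc85b overlaps it on the opposite strand.

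Batf and Batf3 are small factors that form dimers with Jun proteins and cooperate with interferon regulatory factors in lymphoid and dendritic cells. Batf (gene 53314, chr12:85686720-85709087) was at 17.8, 20.7 and 20.9 CPM with empty vector, 34.7, 42.0 and 38.8 CPM with wild-type Snai1 and 21.6, 18.4 and 20.7 CPM with the mutant. Its wild-type libraries lay close together and above all others, including wild-type replicate 1. Batf rose by 0.96 on the log2 scale (SE 0.10, 95% interval 0.73 to 1.18) with the smallest adjusted p of the 8 tested genes, 3.24e-05 in the edgeR test. Batf3 (gene 381319, chr1:191098414-191108943) had 1 count over the 3 controls, 6 counts over the wild-type libraries and 0 over the mutant libraries. Atf3 (gene 11910, chr1:191170296-191183333), a stress-induced factor that pairs with Jun, had 3, 1 and 8 counts in wild-type replicates 1 to 3 and 0 counts in the other 6 libraries. Both genes were removed by the filter on low counts, so they have no test here. At this depth 0 counts allow up to 3 counts per library, 0.144 to 0.161 CPM.

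**Figure D2:**
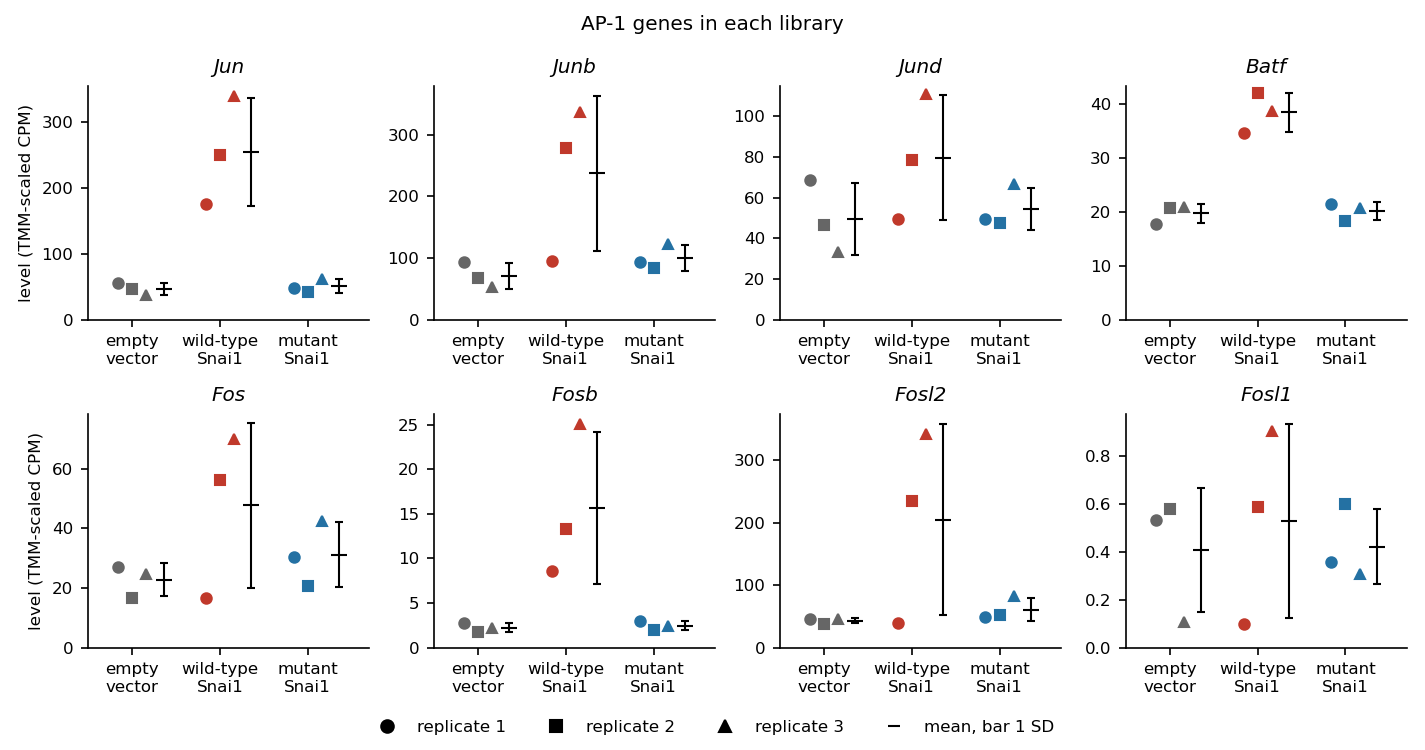
Levels of the 8 tested AP-1 genes in TMM-scaled CPM on a linear axis, with 1 point per library, a marker shape for each replicate number, and the mean with 1 SD of 3 libraries beside each group. Wild-type replicate 1 lies with the control and mutant libraries for Fos, Fosl2, Junb and Jund and above them for Jun, Fosb and Batf.

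With wild-type Snai1, 5 of the 8 AP-1 genes that passed the filter rose against empty vector: Jun, Junb, Fosb, Fosl2 and Batf. Fos, Jund and Fosl1 did not pass. Across all 12484 tested genes 25.2% were called higher and 24.3% lower (49.4% in all), so a call in itself was common in this comparison. The median log2 fold change was 1.40 over the 8 genes and 0.00 over all tested genes. Without wild-type replicate 1 Fos also rose, which made 6 of 8, with 29.9% of all tested genes called higher in that fit. Without empty vector replicate 1, the highest control for 6 of the 8 genes, Jund joined the 5 instead, again 6 of 8, with 20.7% of all tested genes called higher. Groups did not overlap, with wild-type Snai1 higher, for 4 of the 8 genes (Jun, Junb, Fosb and Batf) and for 28.1% of all tested genes.

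The tested genes showed 2 main patterns across the wild-type libraries. In wild-type replicate 1, Jun, Fosb and Batf lay above all 6 libraries without wild-type Snai1, at 3.76, 3.86 and 1.75 times the control mean. Fos, Fosl2, Junb and Jund lay inside the range of those 6 libraries, at 0.728, 0.897, 1.35 and 0.996 times the control mean. In wild-type replicates 2 and 3 these same 7 genes were above all 6 other libraries. Fosl1 was below the 6 libraries in wild-type replicate 1 and above them only in replicate 3. Wild-type replicate 1 was the lowest of its group for all 8 genes. It also had the lowest Snai1 level of the group, and whether that difference or another property of the library moved these genes was not tested.

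With the mutant, 0 of the 8 tested AP-1 genes passed against empty vector, by edgeR or by DESeq2, and 0 had an unadjusted p under 0.05 with either tool, where 4.83% of all tested genes had one in edgeR. Over all genes 0.00801% were called (1 of 12484), or 62 genes (0.491%) without wild-type replicate 1, 0 of them AP-1 genes. Log2 fold changes ran from 0.03 for Batf (SE 0.10, 95% interval -0.20 to 0.26) to 0.50 for Fosl2 (SE 0.70, interval -1.16 to 2.15). The Jun interval was -0.46 to 0.73 and that of Fosb was -0.85 to 1.11, which leaves room for modest changes. Junb changed by an estimated 0.49 (SE 0.44) and Fos by 0.46 (SE 0.51). The 3 mutant libraries lay above the 3 controls only for Fosl2, a pattern met with the mutant higher in 8.53% of all tested genes. For 5 of the 8 genes mutant replicate 3 was the highest of its group, as with 82.2 CPM for Fosl2 and 124 CPM for Junb.

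The direct comparison of wild-type with mutant Snai1 tests the difference between the effects of both forms, with the control libraries left out of the contrast. Jun was higher with the wild type by 2.32 on the log2 scale (SE 0.26, edgeR adjusted p 1.52e-04), Fosb by 2.68 (SE 0.38, 3.64e-04) and Batf by 0.93 (SE 0.10, 4.31e-05). These 3 of 8 genes passed, where 24.5% of all tested genes were called higher with the wild type. Their groups did not overlap, as for 27.5% of all tested genes. Junb, at 1.24 (SE 0.44), just missed the threshold with an adjusted p of 0.0507, and Fosl2, at 1.75 (SE 0.69), missed it with 0.0768. DESeq2 called both genes (adjusted p 0.0240 for Junb and 0.0283 for Fosl2), and edgeR called Junb with RLE scaling (0.0465) or the stricter filter (0.0459). Without empty vector replicate 1 edgeR called 4 of 8, Junb included (adjusted p 0.0348), and 22.9% of all tested genes were then called higher. Without wild-type replicate 1 edgeR called 6 of 8 and 29.7% of all tested genes higher, with Fosl2 at 2.25 (adjusted p 0.00126), Junb at 1.62 (0.00454) and Fos at 1.02 (0.0471). Fos at 0.61 (SE 0.50), Jund at 0.55 (SE 0.34) and Fosl1 at 0.32 (SE 0.67) did not pass with all libraries. This contrast shares the wild-type libraries with the first one, so the values are not independent of those above.

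**Figure D3:**
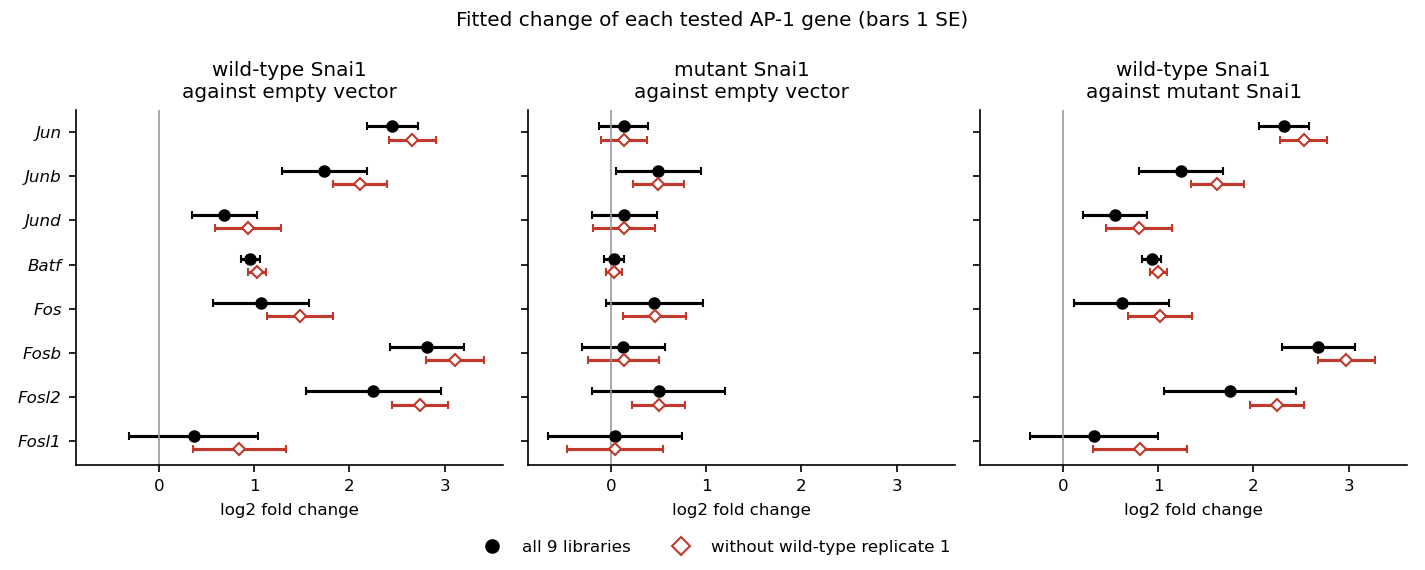
Fitted log2 fold changes of the 8 tested AP-1 genes in the 3 comparisons, with bars of 1 SE, for all 9 libraries (filled circles) and without wild-type replicate 1 (open diamonds). Jun, Fosb and Batf sit clear of 0 in both comparisons that hold wild-type Snai1, and the bars of Fosl2 narrow from an SE of 0.71 to 0.29 against empty vector when that library is left out.

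Levels of different genes were compared per length, as CPM per kilobase of exon. In the controls Junb was highest at 38.7 ± 11.3, followed by Batf at 21.9 ± 1.96, Jund at 17.2 ± 6.22, Jun at 14.6 ± 2.92, Fos at 10.9 ± 2.63 and Fosl2 at 7.35 ± 0.779 (SD, n = 3). Batf and Jund, and Jund and Jun, differed by less than the SD of Jund, so the order of these 3 genes is not resolved. Fosb at 0.591 ± 0.123 and Fosl1 at 0.238 ± 0.152 were far lower. The order of these 8 genes was the same in the mutant libraries, from Junb at 54.6 ± 11.2 down to Fosl1 at 0.247 ± 0.0916. With wild-type Snai1 the means were 129 ± 68.5 for Junb, 80.0 ± 25.9 for Jun, 42.6 ± 4.06 for Batf, 35.0 ± 26.2 for Fosl2 and 27.6 ± 10.7 for Jund. Junb and Jun differed there by less than the SD of Junb, and Fosl2 and Jund by less than the SD of Fosl2, so these ranks are not resolved. In wild-type replicate 1 Jun was above Junb, which was at 52.1, and Fosl2, at 6.59, was below Jund at 17.1.

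The make-up of both families per length differed between the wild-type and the other libraries. Jun contributed 30.5% to 44.3% of the summed Jun, Junb and Jund level in the wild-type libraries, 19.0% to 22.7% in the controls and 17.7% to 18.2% in the mutant libraries. Jund contributed 10.6% to 13.8%, 22.3% to 25.8% and 20.7% to 21.7% in the same order, so neither share overlapped between the wild-type group and the rest. The Junb share was 42.0% to 58.9% with wild-type Snai1, against 54.5% to 55.1% in the controls and 60.6% to 61.1% with the mutant. In the Fos family, Fosb made up 4.96% to 13.5% with wild-type Snai1, 3.10% ± 0.195 (SD, n = 3) in the controls and 1.81% to 3.30% with the mutant. Fos was the larger part in the controls (52.1% to 59.2%), and with wild-type Snai1 its share was 33.9% to 47.0%. Fosl2 ranged from 39.1% to 58.9% in the wild-type libraries, from 36.1% to 42.5% in the controls and from 34.8% to 45.0% with the mutant. These shares were not tested.

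**Figure D4:**
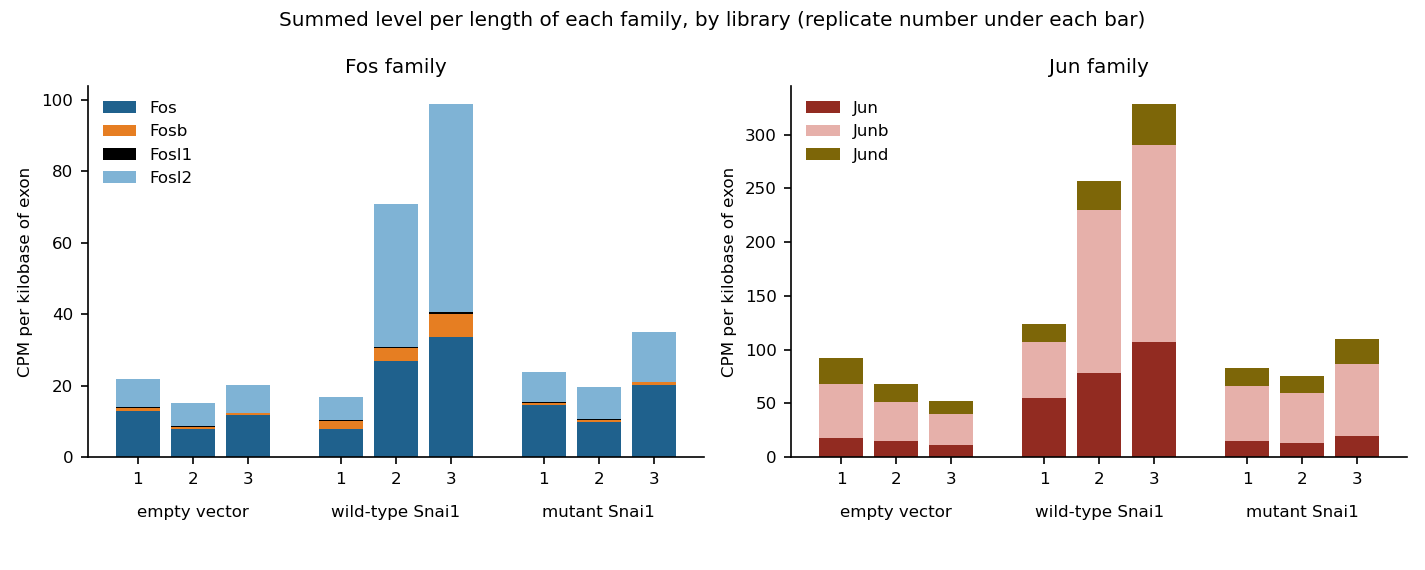
Summed level per length of the Fos family (left) and the Jun family (right) in CPM per kilobase of exon, with 1 bar per library divided by gene. The Fos family of wild-type replicate 1 (summed level 16.9) lies inside the range of the controls (15.2 to 21.9), while its Jun family (124) is taller than theirs.

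Several AP-1 genes varied more between libraries of 1 group than most tested genes. In the controls the SD of log2 CPM was 0.52 for Jund, 0.42 for Junb and 0.37 for Fos, larger than that of 97.2%, 95.3% and 94.0% of tested genes, whose median SD was 0.08. In the wild-type group it was 1.68 for Fosl2 and 1.12 for Fos, larger than that of 99.8% and 99.2% of tested genes, against a median of 0.15. The SD of Batf was 0.14 in the wild-type group, larger than that of 45.7% of tested genes, and larger than that of 71.7% in the controls and 67.1% with the mutant.

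Other genes of the pathway were taken from lists. Their counts stand against 25.2% of all tested genes called higher and 24.3% lower with wild-type Snai1, or 29.9% and 28.8% without wild-type replicate 1. Among 13 further AP-1 and Maf factors, 11 were tested, of which 6 rose and 2 fell with wild-type Snai1 (median log2 fold change 0.21). Nfe2l2, which encodes the antioxidant regulator Nrf2 and pairs with small Maf proteins, went from 270 ± 2.63 CPM in the controls to 459 ± 43.7 CPM (SD, n = 3). On the log2 scale Nfe2l2 rose by 0.77 (SE 0.07, edgeR adjusted p 7.86e-06). The small Maf gene Maff rose by 0.95 (SE 0.14) and the repressor gene Bach2 by 1.81 (SE 0.29) from 0.463 ± 0.0836 CPM, whereas Nfe2, a factor of megakaryocytes and erythroid cells, fell by 0.97 (SE 0.17) on the log2 scale. Adjusted p for these 3 were 3.03e-04, 5.34e-04 and 0.00122.

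The 19 tested genes of the MAP kinase cascades, which phosphorylate Jun and drive Fos transcription, split into 7 that rose and 6 that fell, with a median of 0.06, where 49.4% of all tested genes were called in either direction. Map2k4, a kinase that activates the Jun N-terminal kinases, rose by 0.46 (SE 0.05, edgeR adjusted p 4.57e-05). Rps6ka3, a ribosomal S6 kinase that acts on Fos, rose by 0.51 (SE 0.06, 4.67e-05) and the kinase Map3k8 by 1.17 (SE 0.19, 5.45e-04), while Map3k1 fell by 0.64 (SE 0.09, 2.76e-04). Of 8 tested serum response and CREB factors 2 rose and 1 fell, with a median of 0.09, so the share that rose was near the 25.2% of all tested genes. Without wild-type replicate 1, 4 rose and 2 fell, against 29.9% and 28.8% of all tested genes. Elk1, a partner of serum response factor, rose by 0.29 (SE 0.07, adjusted p 0.00426), as did Mef2a by 0.43 (SE 0.11, 0.00967), and Creb1 fell by 0.35 (SE 0.06, 0.00122). Elk4 had a log2 fold change of -0.17 (SE 0.08, 0.108).

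Among 9 genes for the turnover of AP-1 RNA and protein, 4 rose and 1 fell (median 0.14). Zfp36l1, which speeds the decay of RNAs with AU-rich elements, rose by 0.78 (SE 0.10, edgeR adjusted p 1.24e-04), and the ubiquitin ligase genes Itch and Fbxw7 rose by 0.17 (SE 0.06, 0.0299) and 0.30 (SE 0.10, 0.0312). Det1, part of a ligase complex that marks Jun for degradation, fell by 0.71 (SE 0.10, 1.82e-04).

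Genes taught as AP-1 targets had 12 of 14 tested members higher and 1 lower with wild-type Snai1, and the median of the 14 log2 fold changes was 1.61. The chemokine gene Ccl2 rose from 62.3 ± 4.28 to 349 ± 10.9 CPM (SD, n = 3) by 2.48 (SE 0.07, edgeR adjusted p 6.00e-09), Ccnd1, which encodes cyclin D1, by 2.08 (SE 0.13, 1.32e-06) and the cell cycle inhibitor gene Cdkn1a by 1.28 (SE 0.09, 2.84e-06). Ezr, which encodes the membrane linker ezrin, fell by 2.10 (SE 0.09, 5.67e-08). Relative to the control mean, the median log2 difference of the targets was 1.24, 1.49 and 1.64 in the wild-type libraries taken in order. The same median over the tested AP-1 genes was 0.26, 1.67 and 1.97. These targets have many other regulators, and no binding of AP-1 was measured.

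As a list, immediate-early genes outside AP-1 showed the low wild-type replicate 1 again. Their median log2 difference from the control mean was 0.34, 2.09 and 2.57 in the wild-type libraries and 0.22, 0.21 and 0.73 in the mutant libraries. Of 12 tested, 8 rose, and 10 without wild-type replicate 1. Btg2, an antiproliferative gene, was at 52.3, 144 and 193 CPM in wild-type replicates 1 to 3 and at 10.0 to 13.2 CPM in the controls. Klf6 rose by 1.97 (SE 0.15, edgeR adjusted p 7.82e-06), Ier5 by 2.18 (SE 0.21, 3.43e-05) and the phosphatase gene Dusp1 by 2.09 (SE 0.35, 0.00117) on the log2 scale. In wild-type replicate 1 Klf6, Ier5 and Dusp1 were at 265, 169 and 20.7 CPM, against at most 87.9, 57.0 and 10.7 CPM in the controls. These named genes were picked by smallest adjusted p, and the list median in that library was 0.34. Among heat shock genes, which rise with handling stress, 2 of 6 tested members rose, with a median of 0.15 (3 of 6 without wild-type replicate 1), and the list medians of wild-type replicates 1 to 3 were 0.19, 0.26 and 0.20. Hspa8 rose by 0.49 (SE 0.05, 2.79e-05) and Hsp90aa1 by 0.20 (SE 0.08, 0.0468). In wild-type replicates 1 to 3 Hsp90aa1 was at 249, 283 and 307 CPM (236 to 254 in the controls). Dnajb1, which did not pass, was at 88.7, 126 and 157 CPM there (96.3 to 113 in the controls), so both were lowest of their group in wild-type replicate 1. Hspa8, at 254, 238 and 247 CPM, and Hsph1, at 107, 92.9 and 92.8 CPM, were instead highest of their group in wild-type replicate 1. The part of handling or of sorting in the AP-1 levels was not tested.

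Against the mutant, the wild type was higher for 12 of 14 targets (1 lower, median 1.47) and 7 of 12 immediate-early genes outside AP-1 (0 lower, median 1.73). The same held for 5 of 11 further AP-1 and Maf factors (1 lower, median 0.28) and 7 of 19 MAP kinase steps (6 lower, median 0.07). Of all 12484 tested genes, 3053 (24.5%) were called higher and 2924 lower in this comparison. With the mutant against empty vector, edgeR called 0 of 106 tested list genes, against 1 of all 12484 tested genes. An unadjusted p under 0.05 in edgeR was met for 9 of the 106, against 603 of all 12484 (4.83%). The AP-1 targets held 5 of these 9, from 14 tested, and their median log2 fold change was 0.24. DESeq2 called 3 list genes, 2 of them targets, and 10 genes in all. Without wild-type replicate 1 edgeR called 3 of 107 list genes, 2 of them targets, against 62 of all 12619 tested genes (0.491%). For Ccl2 the mutant libraries were at 86.2, 81.0 and 93.1 CPM, above the 57.4 to 65.3 CPM of the controls, with a log2 fold change of 0.48 (SE 0.07) and an edgeR adjusted p of 0.151.

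**Figure D5:**
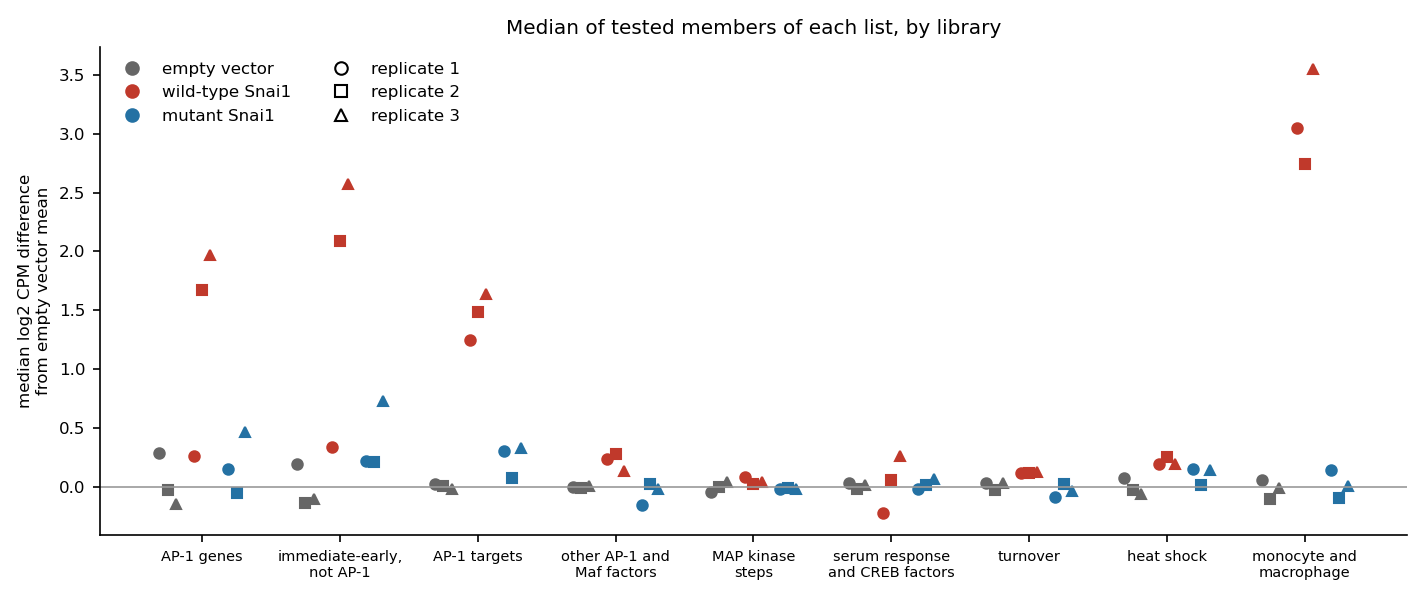
Median difference in log2 CPM (prior count 2) from the empty vector mean over the tested members of 9 gene lists, with 1 point per library, coloured by group and shaped by replicate number. The list median of wild-type replicate 1 falls near the controls for the AP-1 genes (0.26) and other immediate-early genes (0.34), though single members lie above them. It falls near its own group for targets (1.24) and macrophage markers (3.05).

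Markers of other blood cells moved with the same groups and are given beside the AP-1 genes. Of 12 monocyte and macrophage markers 11 were tested, and 8 rose and 2 fell with wild-type Snai1 (9 and 1 without wild-type replicate 1). Their summed level was 658 to 713 CPM with empty vector, 1409 to 2052 CPM with wild-type Snai1 and 621 to 695 CPM with the mutant, and 0 of the 12 were without counts in all libraries. Mpeg1 rose by 6.95 (SE 0.32), Cd14 by 6.07 (SE 0.29), Lyz2 by 5.13 (SE 0.23) and Cd68 by 2.35 (SE 0.13) on the log2 scale, with edgeR adjusted p of 3.71e-07, 1.83e-07, 3.71e-07 and 3.76e-07. They were picked by smallest adjusted p, and the 2 markers that fell are not among them. In the controls they averaged 0.968, 0.524, 11.6 and 10.1 CPM in that order, so most of the summed level there came from other markers. Neutrophil markers summed to 1.65 to 2.84 CPM in the controls and 56.3 to 114 CPM with wild-type Snai1, with Ly6g and Retnlg at 0 in all libraries. Of these wild-type sums, Lcn2 alone made up 53.5, 84.7 and 111 CPM in replicates 1 to 3. Their tested members were Lcn2, which rose by 8.50 (SE 0.40, adjusted p 3.22e-07), and Cxcr2 and Ltf, which did not pass. Among lymphoid markers, Cd3e, Ms4a1 and Ncr1 were at 0 in all libraries. Of 9 fibroblast markers Col3a1, Dcn, Lum and Thy1 were at 0 in all libraries, and their sum of 320 to 527 CPM came nearly all from Pdgfrb, which fell by 0.39 (SE 0.09, adjusted p 0.00596). In bulk RNA more cells of a type and more RNA per cell cannot be told apart, and the part of such cells in the AP-1 changes was not tested. Among the progenitor markers themselves 3 of 11 rose and 3 fell, near the 25.2% and 24.3% of all tested genes, or 4 and 5 without wild-type replicate 1 (29.9% and 28.8%). Lmo2 rose by 1.01 (SE 0.07, 1.52e-06) and Cd34 by 0.62 (SE 0.12, 0.00221), while Runx1 fell by 0.95 (SE 0.07, 3.98e-06) and Tal1 by 0.45 (SE 0.07, 4.51e-04).

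The genes most alike to Jun and Fos were sought among 10737 named genes that averaged 1 CPM or more, by Pearson correlation of log2 CPM over the 9 libraries. Those closest to Jun were Tagln2, an actin-binding protein gene (r = 0.998), the host gene of microRNA 22, Mir22hg (0.997), and Pdia3, a chaperone of the endoplasmic reticulum (0.996). Those closest to Fos were the glycolytic enzyme gene Eno1 (0.979), the chromatin protein gene Dek (0.974) and Ncoa7 (0.970). Each has its own size of change: Tagln2 went from 319 ± 17.1 to 561 ± 66.1 CPM and Eno1 from 168 ± 11.6 to 223 ± 64.0 CPM from the controls to the wild type (SD, n = 3). The 9 points share the group difference and the low wild-type replicate 1, so these values describe likeness only.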

How the data were processed

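Gene expression was measured in 9 libraries of total RNA made with the TruSeq stranded mRNA kit. The deposited values are raw counts per Entrez gene, made by the authors with featureCounts on mm10, per the submitters' processing notes, which list edgeR 3.15.0 and limma 3.29.12 too. For the aligner, annotation, strand setting and featureCounts version the entry is: not given in the sources used here. Gene lengths in bases, a quantity of another kind, were deposited in the same table.

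Identifiers were matched to RefSeq GRCm38.p6, the assembly behind mm10, which named 25275 of 27179 genes. In R 4.3.3 with edgeR 4.0.16, filterByExpr left 12484 genes (8 of the 10 AP-1 genes), TMM scaled the library sizes, and 1 robust quasi-likelihood fit held all 9 libraries. P-values were adjusted over all tested genes by Benjamini-Hochberg, and under 0.05 a gene was called. SE is the absolute log2 fold change over the root of the F statistic. DESeq2 1.42.0, RLE scaling, 2 other filters, 2-group fits, a replicate block and leaving out each library were alternatives. Counts of called list genes without wild-type replicate 1, the shares of calls without single libraries and the detail of the chi-square were chosen after seeing the data. Floors cover counting error only, whereas intervals of fold changes also hold the spread between libraries. Floors are approximate because PCR copies of a molecule were counted as separate reads.

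The members and lists were chosen with earlier results of these data known. Of 142 list names 3 were not matched under the symbol used. The named genes were the 10 AP-1 genes and Snai1, up to 4 genes per list with the smallest adjusted p in the first comparison, and the 3 genes most alike to Fos and to Jun. Nothing in the labels ties the replicates to separate cultures or transductions, so p-values reflect only how far these libraries vary, possibly for technical reasons. Other columns of samples numbered 0. The result of 1 list gene is not reported here.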

Additional observations from a re-analysis of the deposited data

How the results depend on the processing

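Jun, Fosb and Batf kept their direction and their side of the threshold under all alternatives run in both comparisons with wild-type Snai1. With wild-type Snai1 against empty vector, 3 AP-1 genes were called higher with the replicate block, beside 2976 of all tested genes. Leaving out each library gave 3 to 6 AP-1 genes and 2599 to 3779 of all tested genes called higher. Against the mutant, DESeq2 called 5 AP-1 genes higher, beside 3215 genes in all. Leaving out each library there gave 3 to 6 AP-1 genes and 2537 to 3748 of all tested genes called higher. Over all genes the calls with the mutant against empty vector numbered 30 when only the 2 groups compared were fitted, 10 with DESeq2, and 1 to 62 when leaving out each library. The other 2 comparisons had 5106 to 7410 and 4978 to 7308 calls. Whether replicate numbers pair the libraries cannot be settled with 3 libraries per group. After removal of group means 2 of 9 pairs of the same number correlated above 0.1 (-0.0873 to 0.210), and 4 of 9 libraries correlated best with their own number. Same-number pairs of wild-type and mutant libraries were at 0.114, 0.0313 and 0.210, and those with an empty vector library at -0.0873 to 0.0122. Pairs of unlike numbers ran from -0.165 to 0.117 over all groups. In edgeR the replicate block took the calls of Fosl2 (adjusted p 0.0811) and Junb (0.0628) against empty vector. The cause of these changes was not tested.

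Signs turned only among values that passed no test, all of them when a library was left out. For the mutant against empty vector the log2 fold changes ran from -0.0334 to 0.29 for Fosb (-0.01 without another library), from -0.39 to 0.39 for Fosl1 (also -0.30), from -0.0374 to 0.28 for Jun (also -0.00157), from -0.0810 to 0.45 for Jund (also -0.03) and from -0.0415 to 0.0937 for Batf (also -0.02). With wild-type Snai1 Fosl1 ran from -0.24 to 0.84 against empty vector (also -0.07) and from -0.28 to 0.81 against the mutant. The median log2 fold change of all genes stayed within 0.02 of 0 under every scaling run. Depth limited Fosl1, Atf3 and Batf3, with at most 18 counts in a library.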

Other observations

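The gene Ccdc85b, which lies on the opposite strand across 2767 bases of Fosl1, was looked up after the values were seen. Ccdc85b was at 19.3, 14.0 and 7.51 CPM in empty vector replicates 1 to 3, at 6.08, 15.9 and 19.0 CPM with wild-type Snai1 and at 15.2, 14.5 and 20.0 CPM with the mutant. Fosl1 had 2 counts in empty vector replicate 3 and 2 in wild-type replicate 1, the libraries in which Ccdc85b was lowest of all 9. Within the mutant group the order was the opposite, with Fosl1 at 7, 12 and 6 counts in replicates 1 to 3. Prdx2, the neighbour over part of Junb, did not share the Junb pattern in the wild-type group, with 245, 205 and 209 CPM in replicates 1 to 3. In the controls it fell in the same order as Junb, with 245, 237 and 206 CPM in replicates 1 to 3. With the mutant it was at 256, 225 and 255 CPM, with replicate 2 lowest, as for Junb. The part of shared reads in these levels was not tested.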
